A study of Mus musculus with 9 samples.

Results

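A set of 8 genes for cell-surface adhesion proteins was followed in this RNA-seq experiment, the cadherins Cdh19, Cdh2, Cdh6 and Cdh11 and the immunoglobulin-type molecules Ncam1, L1cam, Mcam and Alcam. They were picked by name, as adhesion genes known from neural crest cells and their descendants, with earlier results of these data known. All 8 were found among the 56289 genes listed and among the 25417 genes tested. The cultures were RAW264.7 cells according to the study, a mouse macrophage-like line, and the labels give the strain as BALB/c. There were 3 groups of 3 libraries, all from this 1 line: untreated cells (Con), cells given TNF-α for 24 h, and cells given TNF-α together with WBT (Wang Bi tablet, a herbal medicine for arthritis) for 24 h. The labels write WBP for the last group. TNF-α, listed in the methods as recombinant human protein, was given at 20 ng/ml, and WBT at 1.0 μg/ml. Levels are in FPKM, fragments scaled for transcript length and for the size of the library, a unit per length that allows one gene to be set beside another. In bulk RNA, fewer cells of a type and less RNA per cell cannot be told apart.

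The macrophage label was checked against marker genes, and the data went against it. Of 12 macrophage genes, 7 were listed at 0 FPKM throughout, among them Adgre1, Itgam, Ptprc and Spi1, and 1, Cd14, exceeded 1 FPKM in every library. In contrast, 7 of 12 Schwann cell genes and 10 of 12 fibroblast genes exceeded 1 FPKM in every library. So did 3 of 6 neuron genes (Tubb3, Map2 and Nefl) and 1 of 6 melanocyte genes (Mitf). None of the 6 endothelial, 6 epithelial and 6 skeletal myoblast genes did. The libraries are therefore named below by treatment only. Estimated depth ran from 16964000 to 26312000 fragments, lowest in the TNF-α+WBT group (16964000 to 19836000).

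Cadherins are calcium-dependent proteins that bind the same or a related cadherin on a neighboring cell and connect through catenins to the actin skeleton. Neural crest cells change their cadherins as they leave the neural tube, and Cdh19 marks the Schwann cell precursors that arise from them. Ncam1, L1cam, Mcam and Alcam bind without calcium through immunoglobulin domains, and in peripheral nerve they serve contact between axons and Schwann cells. Several of these molecules are made in forms that differ by a small exon.

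These small exons are shown because the forms of L1cam and Mcam described below differ by them. They are also shown because among the Ncam1 forms only the longer transmembrane one holds the exon printed. The L1cam and Mcam forms differ in the lengths of their first and last exons too, and their shares are estimates for whole transcripts. Each small exon is written 5′ to 3′ on the gene's own strand. The exon is in capitals, with 15 bases of the adjoining exons of the transcript in lower case. Positions are from the GENCODE M21 annotation of GRCm38. The L1cam exon of 15 bases lies at chrX:73867022-73867036 on the minus strand, in the part coding for the outer domains. The L1cam exon of 12 bases lies at chrX:73855652-73855663 on the minus strand, in the part coding for the cytoplasmic tail. The Ncam1 exon of 30 bases, known as the VASE exon, lies at chr9:49550540-49550569 on the minus strand, within an immunoglobulin domain. The Mcam exon of 118 bases lies at chr9:44141275-44141392 on the plus strand, close to the end of the coding part, and its length is not a multiple of 3.
L1cam 15-base exon: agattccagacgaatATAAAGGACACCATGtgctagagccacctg
L1cam 12-base exon: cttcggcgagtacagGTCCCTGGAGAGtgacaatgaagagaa
Ncam1 30-base exon: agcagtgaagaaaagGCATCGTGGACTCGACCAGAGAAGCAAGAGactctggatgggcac
Mcam 118-base exon: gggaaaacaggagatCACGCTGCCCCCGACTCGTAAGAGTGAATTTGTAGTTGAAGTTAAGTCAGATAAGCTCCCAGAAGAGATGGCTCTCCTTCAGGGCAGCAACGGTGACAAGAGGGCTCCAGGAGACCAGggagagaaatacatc

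The 8 genes fell into 3 tiers of abundance. Mcam (mean of 83.7 FPKM over the 9 libraries), Cdh19 (66.4), Cdh2 (32.4), L1cam (27.1) and Ncam1 (17.3) were well expressed, while Alcam (1.001) and Cdh11 (0.931) were near 1 FPKM. Cdh6 was close to the limit of detection at 0.0924 FPKM, which corresponded to 4.1 to 17.2 estimated fragments per library. In Con, Cdh19 ranked first with overlap with Mcam. In both groups given TNF-α, Mcam ranked first and every Mcam library lay above every Cdh19 library. Below these, Cdh2, L1cam and Ncam1 kept this order without overlap in each group, and Alcam and Cdh11 overlapped in each group.

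**Figure D1:**
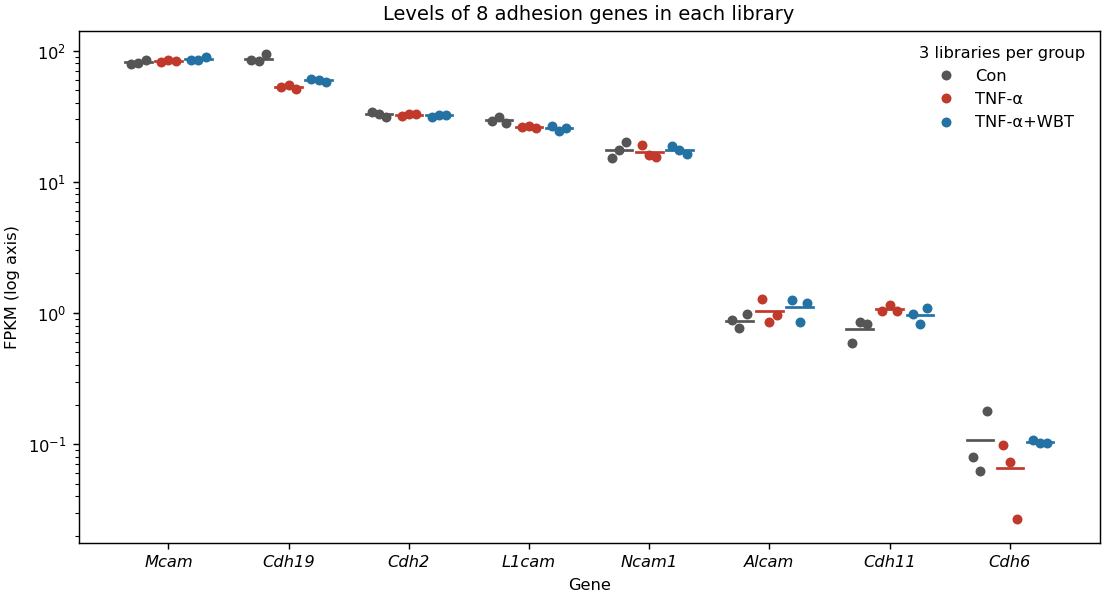
FPKM (log axis) of the 8 genes, with 1 point per library, 3 libraries per group and a line at each group mean. The Cdh19 points fall from 83.1 to 93.3 in Con to 51.3 to 54.5 with TNF-α, while the Mcam and Cdh2 points stay level and the Cdh6 points scatter near 0.1.

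The first comparison asked what TNF-α does to the untreated cells. Of the 8 genes, Cdh19 alone passed an adjusted p under 0.05 in limma, against 4.86% of all genes tested, and it was lower with TNF-α, as were 1.93% of all genes. No gene of the 8 met the study's own rule, a fold change over 2 at an unadjusted p under 0.05, which 2.42% of all genes met. Without the fold, 3 of the 8 (Cdh19, L1cam and Cdh11) were below that p, against 16.1% of all genes. The same 3 were those whose groups did not overlap, against 21.2% of all genes. The median log2 fold change over the 8 was -0.04, and over all genes tested it was 0.00285.

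The second comparison asked what WBT adds to TNF-α, and it shares the 3 TNF-α libraries with the first. None of the 8 genes passed the adjusted threshold in limma, against 0.00393% of all genes, and none did with limma-voom. At an unadjusted p under 0.05 there was 1 of 8, Cdh19, against 6.31% of all genes. None passed the fold rule, against 1.12%. The groups did not overlap for 3 of the 8, Cdh19, Mcam and Cdh6, each higher with WBT, against 11% of all genes in either direction and 5.39% in this one. The median log2 fold change over the 8 was 0.06, and over all genes tested it was -0.00195.

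**Figure D2:**
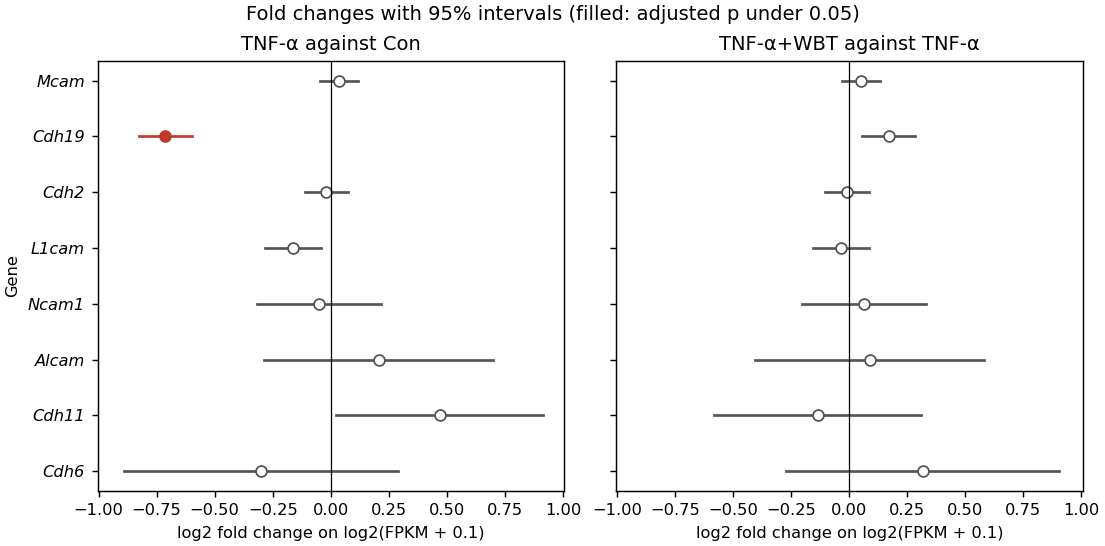
Log2 fold changes of the 8 genes with 95% intervals from limma, on the log2(FPKM + 0.1) scale, for TNF-α against Con and TNF-α+WBT against TNF-α. The single filled point is Cdh19 at -0.71 with TNF-α, and its interval of 0.06 to 0.28 in the second comparison lies above 0 without passing the adjusted threshold.

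Cdh19, the cadherin of Schwann cell precursors, was the gene of the 8 with the clearest response. The gene (ENSMUSG00000047216) lies at chr1:110888326-110977584 on the minus strand. Its level was 84.0, 83.1 and 93.3 FPKM in Con, 52.8, 54.5 and 51.3 FPKM after TNF-α, and 60.9, 59.6 and 57.9 FPKM after TNF-α+WBT. All Con libraries were high, all TNF-α libraries were low, and the TNF-α+WBT libraries lay between them without overlap on either side. The mean fell from 86.8 ± 5.62 to 52.9 ± 1.59 FPKM (SD, n = 3) with TNF-α, a log2 fold change of -0.71 (SE 0.05, 95% interval -0.83 to -0.60, limma adjusted p = 7.56e-05). The ratio was 0.610, short of the fold of 2. Leaving out any 1 library gave log2 fold changes from -0.74 to -0.66.

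With WBT added, Cdh19 averaged 59.5 ± 1.53 FPKM (SD, n = 3), a log2 fold change of 0.17 over TNF-α (SE 0.05, 95% interval 0.06 to 0.28). The unadjusted p was 0.00843 and the limma adjusted p was 0.644, so this difference did not pass the correction although all 3 libraries were higher. The exact two-sided permutation test gave p = 0.1, the smallest value that 3 against 3 libraries allow. Almost all of the gene's level, 98.6%, came from the coding transcript Cdh19-201. This transcript fell with TNF-α by 0.72 on the log2 scale (limma adjusted p = 0.000933) and was 0.17 higher with WBT (adjusted p = 0.823). Among the 36 transcripts of the 8 genes that could be tested, it was the only one past the adjusted threshold in the first comparison, where 0.635% of all transcripts passed, and none passed in the second, where 0.0424% did.

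Some Schwann cell genes were also lower with TNF-α. The summed level of the 12 Schwann cell genes ranged from 842 to 889 FPKM in Con, from 700.2 to 759 FPKM after TNF-α and from 758 to 789 FPKM after TNF-α+WBT. Of the 11 that could be tested, 4 passed the adjusted threshold in limma with TNF-α (Ngfr, S100b, Foxd3 and Erbb3), all lower, against 1.93% of all genes. None of the 11 passed with WBT, where 2 had an unadjusted p under 0.05, against 6.31% of all genes. Mag was at 0 FPKM throughout, and Sox10, the defining factor of the lineage, averaged 97.4 FPKM in Con and 86.8 ± 12.9 FPKM with TNF-α, with overlapping groups, and did not pass (limma adjusted p = 0.538). The 12 fibroblast genes summed to 4817 to 5081 FPKM in Con and 5183 to 5441 FPKM with TNF-α. Of the 11 fibroblast genes tested, Col1a1 and Col1a2 were called higher and Pdgfrb and Postn lower, against 2.94% and 1.93% of all genes. The 6 neuron genes summed to 67.9 to 69.2 FPKM in Con and 29.2 to 33.1 FPKM with TNF-α. Of the 4 neuron genes tested, Tubb3 (55.3 to 16.1 FPKM) and Nefl (4.19 to 1.81 FPKM) were called lower, against 1.93% of all genes. Map2 averaged 8.67 FPKM in Con and 12.4 FPKM with TNF-α without passing, and Rbfox3 was at 0 FPKM throughout. The part of these in the change of Cdh19 was not tested.

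By likeness over the 9 libraries, Cdh19 was closest to Plpp3 (Pearson r = 0.990) and Ngfr (r = 0.988), the low-affinity neurotrophin receptor, and farthest from Ccdc80 (r = -0.994). These correlations of log2(FPKM + 0.1) were ranked over 12685 other genes, and the 9 points fall into the 3 treatment groups, so the values are a description. L1cam was closest to Stk24 (0.957) and farthest from Cpe (-0.980), and Mcam was closest to Ttc28 (0.954) and farthest from Eef1e1 (-0.956). Nras was the second closest gene to Cdh2 (0.941) and the farthest from Ncam1 (-0.913).

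Cdh2, or N-cadherin, the main cadherin of neural and mesenchymal cells, had the steadiest level of the 8. The gene (ENSMUSG00000024304) lies at chr18:16588877-16809246 on the minus strand. It measured 33.9, 33.0 and 31.3 FPKM in Con, 31.4, 32.8 and 32.6 FPKM after TNF-α, and 31.2, 32.4 and 32.5 FPKM after TNF-α+WBT. All 9 libraries fell within a narrow band, with a coefficient of variation of 2.77%, and the groups overlapped in both comparisons. The log2 fold change was -0.02 with TNF-α (95% interval -0.11 to 0.07, limma adjusted p = 0.890) and -0.01 with WBT (interval -0.10 to 0.08, adjusted p = 0.990). On the linear scale the first interval runs from a ratio of 0.925 to 1.05. The transcript Cdh2-201 made up 99.8% of the level.

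Cdh11, a cadherin of mesenchyme and of synovial fibroblasts, was low. The gene (ENSMUSG00000031673) lies at chr8:102632095-102785642 on the minus strand. Its level was 0.588, 0.850 and 0.821 FPKM in Con, 1.04, 1.15 and 1.03 FPKM after TNF-α, and 0.987, 0.824 and 1.10 FPKM after TNF-α+WBT, from 74.3 to 141.4 estimated fragments per library. All 3 TNF-α libraries lay above all 3 Con libraries, and the TNF-α+WBT libraries overlapped the TNF-α libraries. The log2 fold change with TNF-α was 0.47 (SE 0.19, 95% interval 0.02 to 0.91), with an unadjusted p of 0.0410 and a limma adjusted p of 0.281. In limma-voom on estimated fragments the log2 fold change was 0.67 and passed the threshold (adjusted p = 0.0121). With WBT the log2 fold change was -0.14 (interval -0.58 to 0.31, adjusted p = 0.949).

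Cdh6, a cadherin of the early neural crest and the kidney, could barely be measured. The gene (ENSMUSG00000039385) lies at chr15:13028701-13173675 on the minus strand. It was at 0.0799, 0.0622 and 0.180 FPKM in Con, 0.0988, 0.0737 and 0.0267 FPKM after TNF-α, and 0.107, 0.102 and 0.102 FPKM after TNF-α+WBT. Con replicate 3 was the highest library and TNF-α replicate 3 the lowest, and the Con libraries overlapped both other groups. In Con replicate 3, 0.110 FPKM came from the retained intron Cdh6-202, which was listed at 0 FPKM in every other library. The coding transcript Cdh6-201 ranged from 0.0622 to 0.0799 FPKM in Con and from 0.102 to 0.107 FPKM after TNF-α+WBT. The log2 fold changes of -0.30 with TNF-α (interval -0.89 to 0.29, limma adjusted p = 0.663) and 0.32 with WBT (interval -0.27 to 0.90, adjusted p = 0.888) were within wide intervals, and a difference was not detectable at this depth.

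Among the immunoglobulin-type genes, Mcam, or CD146, a receptor known from vessel walls, Schwann cells and melanoma, was the most abundant. The gene (ENSMUSG00000032135) lies at chr9:44134469-44142727 on the plus strand, and 17 bases of its exons overlap the antisense gene Gm10687 at 1.13 FPKM. It measured 79.6, 80.4 and 84.2 FPKM in Con, 82.2, 84.6 and 83.3 FPKM after TNF-α, and 85.0, 84.7 and 89.2 FPKM after TNF-α+WBT. Con and TNF-α overlapped, and the TNF-α+WBT libraries lay just above the TNF-α libraries. The log2 fold change was 0.03 with TNF-α (interval -0.05 to 0.12, limma adjusted p = 0.727) and 0.05 with WBT (interval -0.03 to 0.13, adjusted p = 0.871). The 6 endothelial genes, Pecam1, Cdh5 and Kdr among them, summed to between 0.0985 and 0.414 FPKM over the libraries.

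The form of Mcam with the 118-base exon, Mcam-201, carried 84.1 ± 1.10% of the gene's level in Con, 87.0 ± 1.81% after TNF-α and 86.9 ± 2.08% after TNF-α+WBT (SD, n = 3). Mcam-202 lacks this exon, and forms of the protein with a longer and a shorter cytoplasmic tail are known. Its share was 13.2% in Con, 9.54% after TNF-α and 9.76% after TNF-α+WBT. All TNF-α libraries had a smaller share of it than all Con libraries, with an exact two-sided permutation p = 0.1, the smallest possible. The level of Mcam-202 averaged 10.8 ± 0.693 FPKM in Con and 7.96 ± 0.887 FPKM with TNF-α, a log2 fold change of -0.44 (unadjusted p = 0.0265, limma adjusted p = 0.521), which did not pass the correction.

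L1cam, an adhesion molecule of growing axons and of Schwann cells, was slightly lower with TNF-α. The gene (ENSMUSG00000031391) lies at chrX:73853778-73896105 on the minus strand, and 100 bases of its exons overlap Arhgap4 at 1.68 FPKM. Its level was 29.0, 31.1 and 28.0 FPKM in Con, 26.3, 26.6 and 25.7 FPKM after TNF-α, and 26.7, 24.2 and 25.9 FPKM after TNF-α+WBT. Each TNF-α library lay below each Con library, and the groups with and without WBT overlapped. The mean went from 29.4 ± 1.61 to 26.2 ± 0.481 FPKM (SD, n = 3), a log2 fold change of -0.16 (SE 0.05, 95% interval -0.28 to -0.04). The unadjusted p was 0.0140 and the limma adjusted p was 0.154, whereas limma-voom gave a log2 fold change of -0.23 with an adjusted p = 0.00551. With WBT the log2 fold change was -0.03 (interval -0.16 to 0.09, adjusted p = 0.951).

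The form of L1cam with neither small exon, L1cam-201, was the main one, with 57.3 ± 0.707% of the gene's level in Con, 59.0 ± 5.67% after TNF-α and 49.0 ± 16.2% after TNF-α+WBT (SD, n = 3). L1cam-203, which holds the 15-base exon but not the 12-base exon, had 15.5%, 15.2% and 20.3% in Con, 10.7%, 14.7% and 11.3% after TNF-α, and 14.5%, 45.6% and 16.2% after TNF-α+WBT. The TNF-α libraries were below the Con libraries (exact two-sided permutation p = 0.1, the smallest possible), and TNF-α+WBT replicate 2 stood far above the other libraries, where L1cam-201 dropped to 30.4%. Without that library the mean of L1cam-203 in the TNF-α+WBT group was 15.4% in place of 25.4%. L1cam-202, with both small exons, the form known from neurons, was listed at 0 FPKM in 8 libraries and at 0.128 FPKM in Con replicate 1. Across all transcripts of L1cam that span the place, those with the 12-base exon held 0.745% to 2.93% of the level, and those with the 15-base exon held 16.2% to 60.6%. In the 8 libraries without L1cam-202, the transcript with the 12-base exon was L1cam-209, which is annotated as a retained intron. The retained introns L1cam-213 (10.4%), L1cam-206 (6.41%) and L1cam-210 (4.83%) were also part of the gene's level on which the shares rest. L1cam-213 did not pass with TNF-α (limma adjusted p = 0.894) or with WBT (adjusted p = 0.943).

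Ncam1, the neural cell adhesion molecule, did not pass the test in either comparison. The gene (ENSMUSG00000039542) lies at chr9:49502136-49798925 on the minus strand, and 151 bases of its exons overlap the antisense gene Gm11149 at 0.07 FPKM. It measured 15.1, 17.4 and 19.99 FPKM in Con, 19.1, 15.9 and 15.4 FPKM after TNF-α, and 18.9, 17.5 and 16.3 FPKM after TNF-α+WBT. The spread within each group was wider than the differences between groups, and all 3 groups overlapped. The log2 fold change was -0.05 with TNF-α (interval -0.32 to 0.21, limma adjusted p = 0.894) and 0.06 with WBT (interval -0.20 to 0.33, adjusted p = 0.962).

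Ncam1 protein is known in a form held by a lipid (GPI) anchor and in forms that span the membrane with a shorter or a longer tail. The shorter transmembrane form (Ncam1-202 and Ncam1-204) made up 35.4%, 74.6% and 38.0% in Con, 39.4%, 39.3% and 74.4% after TNF-α, and 32.7%, 37.9% and 30.3% after TNF-α+WBT. Con replicate 2 and TNF-α replicate 3 stood apart from the other 7 libraries, and they had the lowest shares of the GPI-anchored form (Ncam1-201), 7.78% and 6.51%. The TNF-α+WBT libraries lay below the TNF-α libraries in the shorter form (33.6% against 51.0% on average, exact permutation p = 0.1, the smallest possible). Ncam1-205, the longer form and the only one holding the 30-base exon, ranged from 15.9% to 55.6%, with means of 23.3% in Con, 27.1% after TNF-α and 41.1% after TNF-α+WBT. These ranges overlapped, with exact permutation p-values of 0.6 with TNF-α and 0.3 with WBT. The shares are the authors' estimates for whole annotated transcripts, and reads over the small exons themselves were not counted here.

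**Figure D3:**
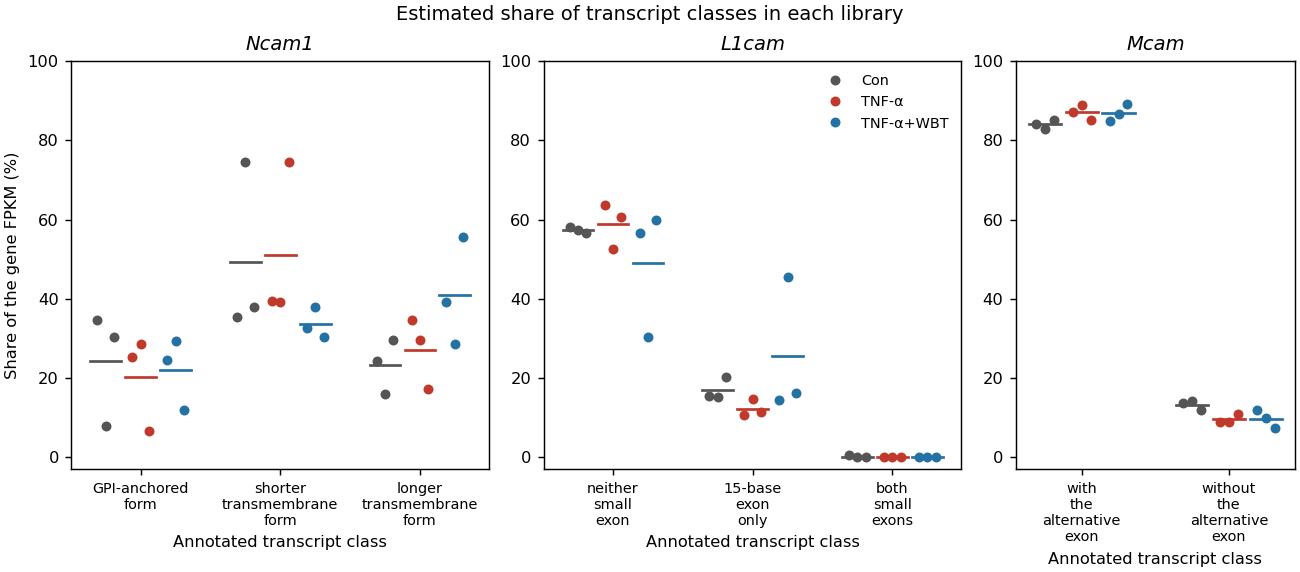
Share of the gene FPKM (%) in classes of annotated transcripts of Ncam1, L1cam and Mcam, with 1 point per library and a line at each group mean. Mcam keeps 82.9% to 89.1% in the form with the 118-base exon, while single libraries stand apart for Ncam1 (74.6% and 74.4% in the shorter form) and L1cam (45.6% with the 15-base exon only).

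Alcam, a ligand of CD6 found on neurons, stroma and activated leukocytes, was low. The gene (ENSMUSG00000022636) lies at chr16:52248996-52454074 on the minus strand. It measured 0.876, 0.765 and 0.976 FPKM in Con, 1.27, 0.857 and 0.965 FPKM after TNF-α, and 1.26, 0.853 and 1.20 FPKM after TNF-α+WBT. TNF-α replicate 1 and TNF-α+WBT replicates 1 and 3 were the highest, and the groups overlapped in both comparisons. The log2 fold change was 0.21 with TNF-α (interval -0.29 to 0.70, limma adjusted p = 0.737) and 0.09 with WBT (interval -0.41 to 0.58, adjusted p = 0.974), while limma-voom gave 0.59 with TNF-α (adjusted p = 0.0422). The coding transcript Alcam-201 averaged 0.495 ± 0.0426 FPKM in Con and 0.823 ± 0.129 FPKM with TNF-α without overlap, and its log2 fold change of 0.63 did not pass the correction (adjusted p = 0.578).

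Genes that work with these molecules were counted over 6 lists. Over the 76 genes tested in them, 4 passed the adjusted threshold upward with TNF-α and 9 downward, against 2.94% and 1.93% of all genes. These shares include many low genes. With the filter at a mean of at least 1 FPKM, 815 of 12686 genes passed upward and 554 downward, which are larger shares. Among 15 other cadherins, 6 could be tested and none passed the adjusted threshold in limma with TNF-α. Of the 6, 2 had an unadjusted p under 0.05, against 16.1% of all genes, while limma-voom called Cdh10 lower (adjusted p = 0.0228). Cdh13 (6.11 FPKM over all libraries), Cdh10 (5.65) and Cdh24 (1.05) were the most abundant, and the epithelial Cdh1 (0.0442) and endothelial Cdh5 (0.00755) were near 0. Of 9 catenin partners tested, 1 was lower and none higher, with a list median log2 fold change of -0.0016. This was Jup, or plakoglobin, which links cadherins to the skeleton and went from 13.5 ± 0.924 to 9.52 ± 0.379 FPKM (log2 fold change -0.50, limma adjusted p = 0.0166), a call lost without Con replicate 3 or TNF-α replicate 1 or 3 (adjusted p up to 0.0664). Ctnnb1, Ctnna1 and Ctnnd1, catenins of the cadherin complex, averaged 178.0, 91.7 and 56.4 FPKM over all libraries and did not pass.

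Of 22 other immunoglobulin adhesion molecules tested, 3 were lower with TNF-α, against 1.93% of all genes, and none higher, against 2.94%. The list median was 0.05. Cadm4, which Schwann cells use to hold axons, fell from 60.0 ± 0.314 to 23.5 ± 1.58 FPKM (log2 fold change -1.35, limma adjusted p = 2.58e-05). Its relative Cadm1 fell from 47.3 ± 4.17 to 33.5 ± 1.59 FPKM (log2 fold change -0.49). Nrcam, of the L1 family, was low at 1.33 ± 0.252 and 0.392 ± 0.0794 FPKM (log2 fold change -1.54, adjusted p = 0.0111), and its adjusted p rose to 0.0504 without Con replicate 1. The most abundant of the list were Bsg (482.9 FPKM), Nptn (60.2) and Cadm1 (38.7).

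Of 14 partners of NCAM and L1 tested, 2 were lower with TNF-α, against 1.93% of all genes, and 1 was higher, against 2.94%. The list median was 0.0092. Ank3, an ankyrin that anchors L1-family tails, fell from 55.9 ± 3.43 to 30.9 ± 1.54 FPKM (log2 fold change -0.85, limma adjusted p = 0.000143). Msn, or moesin, rose from 125.8 ± 1.99 to 150.5 ± 1.96 FPKM (log2 fold change 0.26). Nrp1, the semaphorin co-receptor that pairs with L1, was called lower at 20.4 ± 1.43 against 16.3 ± 0.261 FPKM (adjusted p = 0.0274), and the call was lost without any 1 of the Con replicates 2 or 3 or the 3 TNF-α replicates, with adjusted p-values up to 0.103. The enzymes that add polysialic acid to NCAM, St8sia2 (0.00433 FPKM) and St8sia4 (0.0237 FPKM), were near 0, and Itgb1 (269.3 FPKM) and Fgfr1 (128.8 FPKM) were abundant.

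Of 13 genes for proteases that cut such proteins at the surface or in the membrane, or for subunits of those proteases, all were tested. With TNF-α, 3 were higher, against 2.94% of all genes, and 1 lower, against 1.93%, with a list median of 0.19. Adam17, the TNF-α converting enzyme, rose from 15.5 ± 0.163 to 21.6 ± 0.908 FPKM (log2 fold change 0.47, limma adjusted p = 0.000464). Adam12 rose from 0.647 ± 0.160 to 2.04 ± 0.134 FPKM (log2 fold change 1.54) and Adam19 from 13.1 ± 1.39 to 19.7 ± 0.567 FPKM (log2 fold change 0.59). Adam10, which sheds cadherins and L1cam, was at 56.8 ± 1.85 and 49.6 ± 1.46 FPKM (log2 fold change -0.19, adjusted p = 0.0404), a call that was lost without any 1 of the Con or TNF-α libraries or without TNF-α+WBT replicate 3, with adjusted p-values up to 0.136. The most abundant of the list were Mmp14 (157.8 FPKM), Ncstn (58.25 FPKM) and Adam10 (52.2 FPKM), and limma-voom also called Mmp14 higher (adjusted p = 0.0053).

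Of 12 transcription factors known for cadherin switching or for the neural crest, all were above 1 FPKM in every library. With TNF-α, 2 were lower, against 1.93% of all genes, and none higher, against 2.94%, with a list median of -0.07. Sox9 fell from 10.8 ± 0.328 to 6.62 ± 0.293 FPKM (log2 fold change -0.70, limma adjusted p = 0.000743), and Foxd3 from 94.4 ± 2.65 to 78.9 ± 2.00 FPKM (log2 fold change -0.26, adjusted p = 0.00352). Sox10, Foxd3 and Zeb2 were the most abundant. Snai1, Snai2, Twist1 and Twist2 did not pass in limma or limma-voom. Zeb1 averaged 14.1 FPKM in Con and 23.1 ± 5.71 FPKM with TNF-α without overlap (log2 fold change 0.68, limma adjusted p = 0.0855), and it passed in limma-voom (adjusted p = 0.0232), with the filter at a mean of 1 FPKM (0.048) and with a replicate block (0.04). Zeb2 (limma adjusted p = 0.541) was called lower in limma-voom alone (adjusted p = 0.00443). With WBT added to TNF-α, no gene of the 6 lists passed the adjusted threshold in limma. Of the 76 genes tested, 5 had an unadjusted p under 0.05, against 6.31% of all genes.

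**Figure D4:**
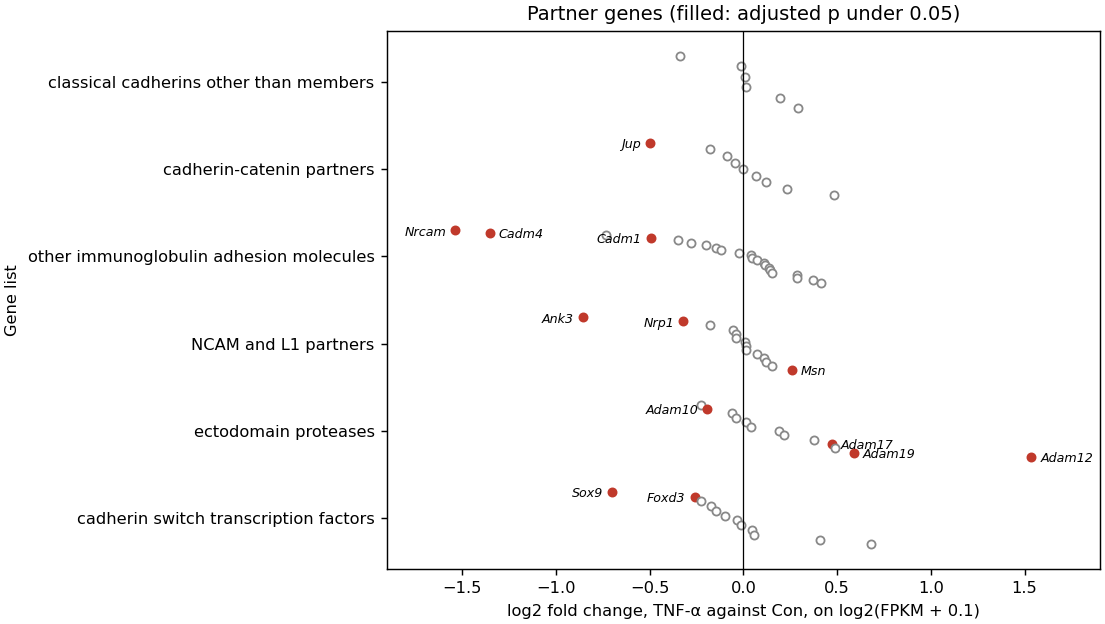
Log2 fold change with TNF-α against Con of every tested gene in the 6 lists, on the log2(FPKM + 0.1) scale, 1 point per gene, with filled and named points past the adjusted threshold of 0.05. Cadm4 (-1.35) and Nrcam (-1.54) lie farthest to the left and Adam12 (1.54) farthest to the right, and most points lie near 0.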

How the data were processed

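RNA of 9 libraries was measured by RNA-seq. The authors deposited FPKM per gene and per transcript, traced in the study to HISAT2, StringTie and Ballgown; versions and genome build are not given in the sources used here. GENCODE M21 supplied names and positions, matching 98.1% of 56289 genes and 97.8% of 144726 transcripts. A gene or transcript entered the tests when at least 3 of its values were over 0. The tests were run in limma 3.58.1 (R 4.3.3) with values as log2(FPKM + 0.1), in 1 model of 3 group means with an intensity trend, and with Benjamini-Hochberg adjustment over all 25417 genes or 80149 transcripts. A fold change on this scale understates changes of low genes. Calls were an adjusted p under 0.05 or, as in the study, an unadjusted p under 0.05 with a fold over 2. Shares of transcripts were compared by exact two-sided permutation tests.

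Depth was estimated from the size of 1 fragment in 10720 genes with a single transcript over 1000 bases, and only 52.0% to 55.3% of low values lay within 0.1 of whole fragments. Estimated fragments served limma-voom, 1 of the alternatives. The labels do not say that libraries came from separate cultures; the study calls them biological replicates, and otherwise p-values measure only the spread between these libraries. The script was tested on simulated data.

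Genes named were the 8 members, their transcripts with at least 10% of the gene and 0.5 FPKM, the genes most and least like them, and, from the lists, those past the adjusted threshold and the 3 most abundant. Other list and marker genes were named after their values were seen. The members and lists were chosen with earlier results of these data known. Marker genes counted as present exceeded 1 FPKM in each of the 9 libraries. No column was left unassigned.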

Additional observations from a re-analysis of the deposited data

How the results depend on the processing

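The call of Cdh19 with TNF-α held under all 11 alternatives and with each of the 9 libraries left out (adjusted p up to 0.00168 and 0.000769). Of 316 recomputed fold changes of the 8 genes, 301 kept their direction and side of the threshold, 3 became significant and 12 changed sign. With limma-voom on estimated fragments, 4 of the 8 passed with TNF-α in place of 1 (Cdh19, Cdh11, L1cam and Alcam). Under that method 1848 of 25365 genes tested passed with TNF-α, against 1236 of 25417 in the main model. Signs also changed under it for Ncam1 with TNF-α (0.0427) and for L1cam (0.0633) and Alcam (-0.1476) with WBT. The cause was not tested. Leaving out 1 library changed the sign of small differences: with TNF-α, Cdh2 ranged from -0.0509 to 0.0074 and Ncam1 from -0.1531 to 0.0479, and with WBT, Cdh2 from -0.0302 to 0.0077, L1cam from -0.066 to 0.0045, Alcam from -0.0234 to 0.2471 and Mcam-202 from -0.0849 to 0.2213. Of the 36 transcripts of the 8 genes tested, 0 to 1 then passed the fold rule with TNF-α and 0 to 2 with WBT. Over all 80149 transcripts tested, 2744 to 3072 passed it with TNF-α and 2227 to 2650 with WBT.

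Counts over all genes moved more. With TNF-α, 615 genes passed the fold rule, against 128 with a pseudocount of 1, 1057 with 0.01, 207 at a mean of at least 1 FPKM and 1138 with limma-voom. With WBT these were 284, against 8, 639, 14 and 568. The single gene past the adjusted threshold with WBT became 11 with a pseudocount of 0.01, 10 without a filter, 7 without a trend, 2 with the 2 groups alone, 2 from summed transcripts, 5 with limma-voom, and 0 to 11 without 1 library. For transcripts, a pseudocount of 1 gave 641 in place of 2707 by fold with TNF-α, 388 in place of 2207 with WBT, and 18 in place of 34 by adjusted p with WBT, which ranged from 38 to 71 without 1 library.

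Replicate numbers did not pair the libraries (r of -0.0502 to 0.0976 for equal numbers, -0.116 to 0.117 for others, and 6 of 18 best matches with the own number). A replicate block left 1 of the 8 genes called with TNF-α, and gave 893 in place of 1236 genes and 209 in place of 509 transcripts past the adjusted threshold with TNF-α, and 0 in place of 1 gene and 1 in place of 34 transcripts with WBT. It took the calls of Nrp1 (0.0711) and Adam10 (0.0584) past an adjusted p of 0.05. Without the filter, Jup (0.0653), Nrp1 (0.0842) and Adam10 (0.0945) lost their calls, without the trend Msn (0.0502), Foxd3 (0.0643), Nrp1 (0.0919) and Adam10 (0.198), and with the 2 groups alone Adam10 (0.0631), while Adam15 (0.0334) gained one. The estimated depth limits Cdh6, and to a lesser degree Cdh11 and Alcam.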
